A study of Drosophila melanogaster with 10 samples.

Results

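Aminoacyl-tRNA synthetase genes were followed in RNA sequencing of Drosophila melanogaster S2 cells, a line from late embryos whose cells resemble hemocytes, the blood cells of the fly. The genes were taken by name alone: an amino acid code followed by RS, with or without the ending -m, plus GluProRS. This gave 33 genes, 18 without the ending (cytosolic) and 15 with it (mitochondrial), of 17869 genes listed in the first set of libraries and 11799 in the second. Both lists held all 33, and all 33 passed the filter on low values (a mean of at least 1) in both sets. The genes alpha-PheRS and beta-PheRS, which encode the subunits of the cytosolic phenylalanine enzyme, carry other names and were not counted.

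The 10 libraries fall into 5 groups of 2, and every group was transfected with Achaete (Ac), a proneural transcription factor, together with its partner Daughterless (Da). In set 1, cells received double-stranded RNA against H2A.Z (a histone variant, gene His2Av in the fly) with wild-type Ac (H2A.Z KD), against Luc with the Ac variant R29G (Ac R29G), or against Luc with wild-type Ac (Luc KD, also Ac WT). In set 2, double-stranded RNA was directed against Arp6, whose protein belongs to the machinery that loads H2A.Z onto nucleosomes, or against Luc, in both cases with wild-type Ac (Arp6 KD and Luc KD). Luc is the control target per the labels, and the series asks how Arp6 bears on gene activation by proneural proteins. No untransfected cells were analysed here, so every value describes cells that also carry Ac and Da. The labels do not say whether the 2 libraries of a group came from separate cultures, and p-values measure only the spread between libraries. In such bulk RNA, fewer cells of a kind and less RNA per cell cannot be told apart.

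An aminoacyl-tRNA synthetase joins one amino acid to the tRNAs that read its codons, the step that gives the genetic code its meaning. Protein synthesis in the cytosol and in mitochondria runs on separate ribosomes and tRNAs, and the mitochondrial enzymes are encoded in the nucleus, made in the cytosol and imported. Mitochondrial ribosomes translate a small set of respiratory chain proteins from mitochondrial DNA, so these enzymes are needed for respiration. In mammals, several cytosolic synthetases and scaffold proteins form a large multisynthetase complex, and others work alone.

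The depth of the set 1 libraries was between 24500413 and 33712374 reads, and that of the set 2 libraries between 9396318 and 10608470. Values are reads per gene divided by 1 factor per library, called scaled reads here, and sets were never compared with each other. Each table of set 1, called A and B, holds 1 library of every group. The knockdown target His2Av had 1713 and 795 scaled reads in H2A.Z KD libraries of tables A and B, against 6484 and 5659 in Luc KD libraries. Arp6 had 386 and 96.5 scaled reads in Arp6 KD libraries 1 and 2, against 483 and 438 in Luc KD libraries, so the first Arp6 KD library kept 79.8% of its same-numbered control and the second 22.0%. All 11 hemocyte markers were read in both sets. Their summed level was 809898 and 618586 in H2A.Z KD, against 625939 and 502931 in Luc KD, and neuronal markers summed to at most 873 in any of those 4 libraries.

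The synthetase genes are spread over the large chromosome arms: the cytosolic genes have 5 members on arm 2L, 4 on 2R, 3 on 3L, 3 on 3R and 3 on X, and the mitochondrial genes have 7 on 3L. All 33 are protein-coding genes with the same coordinates in the deposited tables and in the BDGP6 annotation. GluRS-m (arm 3L, 16415292 to 16417177, minus strand) and TyrRS (16417349 to 16419302, minus strand) lie side by side, 171 bases apart. It is not known whether counting used the strand, so reads of overlapping genes cannot be assigned with certainty. More than 5% of the exon length was overlapped by another gene's exons in 7 members, the largest share being 73.5% in AspRS. There, asRNA:CR45141 and Nmda1 lie on the opposite strand and asRNA:CR43468 on the same one. The others were GluProRS (16.6%), CysRS-m (14.33%), SerRS-m (13.95%), ArgRS-m (11.83%), HisRS (8.91%, Bx on the same strand) and GluRS-m (5.59%, Serinc on the opposite strand).

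Levels per kilobase of exon were higher for the cytosolic than for the mitochondrial class. The cytosolic genes had a median of 1609 scaled reads per kilobase in Luc KD of set 1, and the mitochondrial genes 211. AsnRS was highest with 5802 ± 1422 (SD, n = 2), followed by ThrRS with 4519 ± 433 and AlaRS with 4205 ± 510, and TrpRS (941 ± 97.4) and CysRS (950 ± 37.7) were lowest of the cytosolic genes. AspRS-m stood first among the mitochondrial genes with 904 ± 17.8, and TrpRS-m second with 399 ± 0.278, while IleRS-m (95.4 ± 2.01) and ValRS-m (57.3 ± 11.8) stood last. The highest cytosolic level was 6.16 times the lowest, and the highest mitochondrial level 15.8 times the lowest. In that order, 14 of 17 neighbouring cytosolic pairs and 7 of 14 mitochondrial pairs had overlapping library values. Library values thus did not separate most cytosolic neighbours, but this spread includes a shared shift. In Luc KD, 16 of 18 cytosolic genes were higher in table B than in table A. In Luc KD of set 2, medians per kilobase were 663 and 95.7, with ThrRS, AsnRS and AlaRS again the first 3 and AspRS-m first among the mitochondrial genes. There, 6 of 17 neighbouring cytosolic pairs and 8 of 14 mitochondrial pairs overlapped.

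Under H2A.Z knockdown, cytosolic and mitochondrial synthetase genes differed from Luc KD in opposite directions. Of the 18 cytosolic genes, 17 had a positive log2 difference, with a median of 0.32 and a range of -0.04 to 0.72 on the log2(scaled reads + 1) scale. Of the 15 mitochondrial genes, all 15 had a negative one, with a median of -0.50 and a range of -1.42 to -0.03. The median over all 11944 genes tested was -0.0011. With limma across all genes and a Benjamini-Hochberg adjusted p under 0.05, 1 cytosolic gene was higher, where 2.56% of all genes were, and 2 mitochondrial genes were lower, where 2.04% of all genes were. With the table as a block, since libraries of the same table deviated together, 14 cytosolic genes were higher, against 19.2% of all genes, and 10 mitochondrial genes were lower, against 18.3%. No cytosolic gene was called lower and no mitochondrial gene higher in either limma fit. edgeR on the recovered reads without the block called CysRS higher and 3 mitochondrial genes lower (AlaRS-m, GluRS-m and TrpRS-m), against 3.54% and 3.69% of all genes. DESeq2 without the block called 7 cytosolic genes higher (AlaRS, AsnRS, CysRS, LysRS, SerRS, ThrRS and ValRS), against 9.66%, and 6 mitochondrial genes lower (AlaRS-m, ArgRS-m, CysRS-m, GluRS-m, IleRS-m and TrpRS-m), against 8.31%. In limma without its intensity trend, 0 of the 33 were called, with or without the block, where 1 gene in each direction of all genes was called without it. Leaving out either Ac R29G library also ended the 3 calls made without the block. All genes then had only 15 or 18 called higher and 2 or 3 lower.

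**Figure D1:**
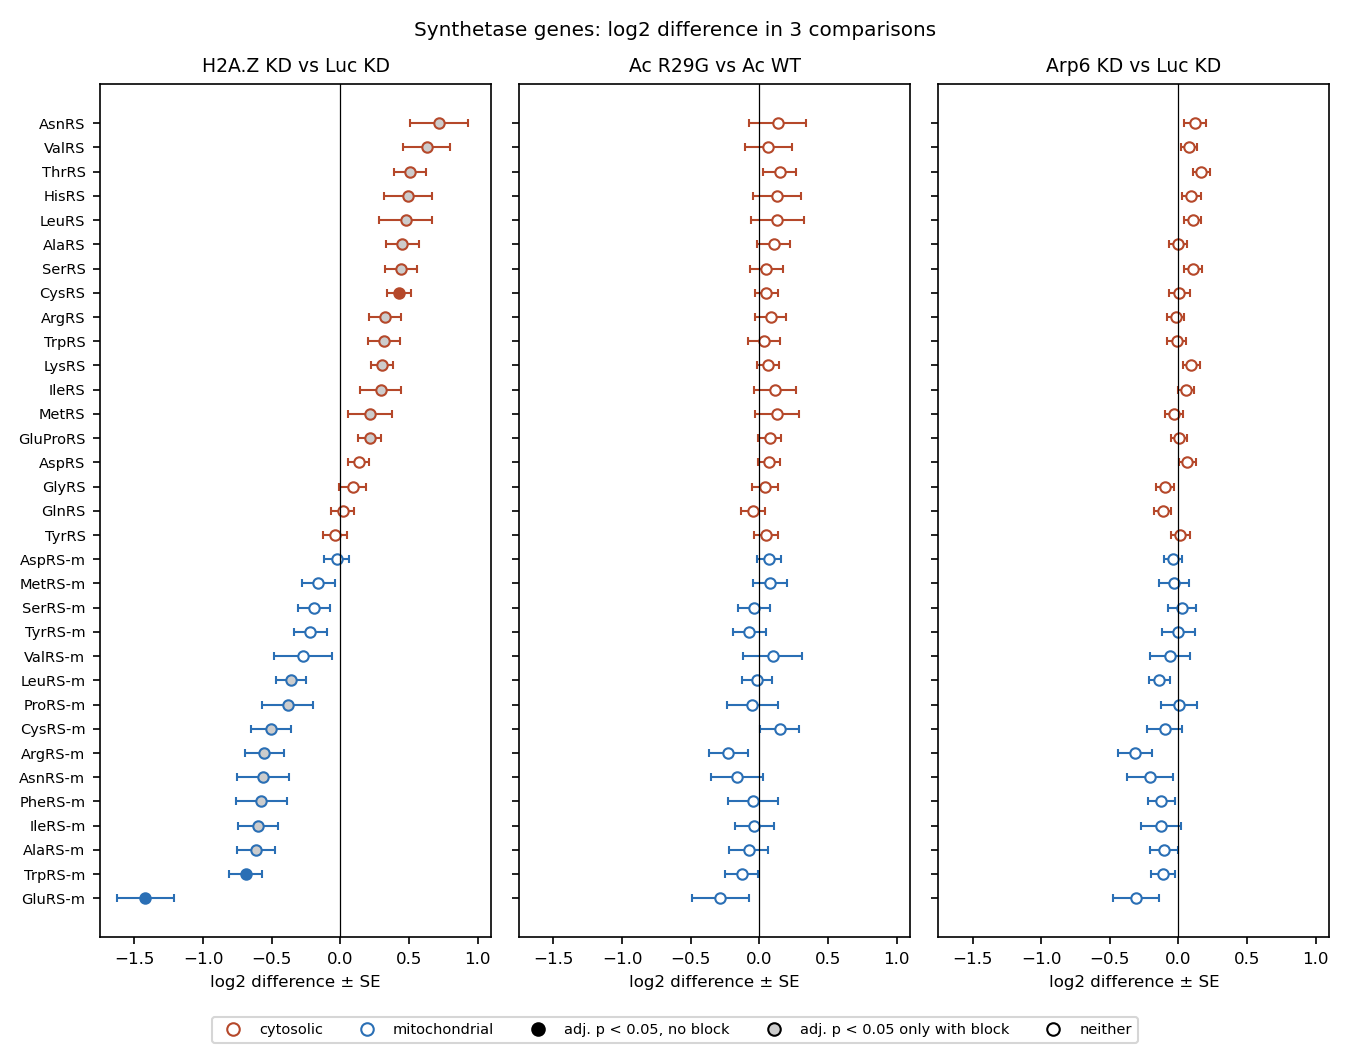
Log2 difference ± SE (limma) of each of the 33 synthetase genes in 3 panels: H2A.Z KD vs Luc KD, Ac R29G vs Ac WT, and Arp6 KD vs Luc KD. Cytosolic genes are red and mitochondrial genes blue, filled where the limma adjusted p was under 0.05 without the block and grey where it was so only with it; cytosolic genes lie right of 0 and mitochondrial genes left of 0 in the first panel except TyrRS, and no gene is filled or grey in the other panels.

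Among cytosolic enzymes, the largest difference belonged to AsnRS, which charges asparagine (arm 2L, 19129469 to 19131954, minus strand). AsnRS had 19932 and 24945 scaled reads in H2A.Z KD of tables A and B, against 11391 and 16168 in Luc KD. Both H2A.Z KD libraries were above both controls, and the H2A.Z KD library had 175% of its control in table A and 154% in table B. The log2 difference was 0.72 (SE 0.21), with a limma adjusted p of 0.0996 without the block and 1.21e-07 with it. ValRS, the valine enzyme, had 6084 and 6937 scaled reads in H2A.Z KD, against 3648 and 4835 in Luc KD, again with no overlap (log2 difference 0.63, SE 0.17, limma adjusted p 0.0825 without the block and 1.12e-06 with it).

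ThrRS, which charges threonine, had 17287 and 19911 scaled reads in H2A.Z KD, against 12201 and 13974 in Luc KD, a log2 difference of 0.51. HisRS, the histidine enzyme, had 6108 and 7422 in H2A.Z KD, against 4183 and 5493 in Luc KD. LeuRS, which charges leucine, had 7286 and 9364 in H2A.Z KD, against 5055 and 6965 in Luc KD. In all 3 the H2A.Z KD libraries lay above the controls, and all 3 passed limma only with the block (adjusted p between 1.37e-06 for ThrRS and 6.78e-06 for LeuRS). AlaRS (0.45), SerRS (0.44), ArgRS (0.32), TrpRS (0.32), LysRS (0.30), IleRS (0.29), MetRS (0.22) and GluProRS (0.21) also had higher levels that passed limma only with the block; the 2 H2A.Z KD libraries of MetRS overlapped with the controls.

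CysRS, the cysteine enzyme on arm 2R, was the cytosolic gene that passed limma without the block. It had 3090 and 3182 scaled reads in H2A.Z KD, against 2266 and 2397 in Luc KD, and its libraries agreed more closely than those of AsnRS or ValRS. The log2 difference was 0.43 (SE 0.085, limma adjusted p 0.0428). The wider spread of other genes followed the tables: 16 of 18 cytosolic genes were higher in table B than in table A in H2A.Z KD, 15 in Ac R29G and 16 in Luc KD. Of the 15 mitochondrial genes, 2 were higher in table B in H2A.Z KD, against 10 in Ac R29G and 11 in Luc KD. Their median log2 of table B over table A was -0.17 in H2A.Z KD, 0.02 in Ac R29G and 0.09 in Luc KD. The mitochondrial class thus lay further below Luc KD in table B than in table A.

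Cytosolic genes that passed in neither limma fit were TyrRS, GlnRS, GlyRS and AspRS. TyrRS, which charges tyrosine, had 3131 and 3095 scaled reads in H2A.Z KD, against 3034 and 3373 in Luc KD, and the H2A.Z KD libraries lay inside the range of the controls. GlnRS, the glutamine enzyme, had 3019 and 3182 in H2A.Z KD, against 2958 and 3175 in Luc KD. GlyRS, the glycine enzyme, had a log2 difference of 0.09, and AspRS, the aspartate enzyme with the overlapping genes, one of 0.13 (limma adjusted p 0.0544 with the block). Outside the 33, the genes for the subunits of the cytosolic phenylalanine enzyme passed in neither limma fit. The alpha-PheRS gene had 1168 and 1266 scaled reads in H2A.Z KD, against 1052 and 1297 in Luc KD (log2 difference 0.06, limma adjusted p 0.607 with the block). The beta-PheRS gene had 4285 and 3944 in H2A.Z KD, against 4473 and 4530 in Luc KD (-0.13, limma adjusted p 0.109 with the block), so its H2A.Z KD libraries lay below the controls.

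Neither the structural class nor complex membership split the cytosolic genes into ranges without overlap. Synthetases fall into structural classes I and II, which bind ATP with unrelated folds. The median log2 difference under H2A.Z KD was 0.32 over the 9 class I genes and 0.45 over the 8 class II genes, with ranges that overlapped (-0.04 to 0.63 and 0.09 to 0.72); GluProRS holds an enzyme of each class in a single chain. The 8 genes whose mammalian counterparts sit in the multisynthetase complex had a median of 0.26 and a range of 0.02 to 0.48, and the 10 others a median of 0.45 and a range of -0.04 to 0.72. The 5 cytosolic genes with no -m gene for the same amino acid (GlnRS, GlyRS, HisRS, LysRS and ThrRS) had a median of 0.30, and the 13 with one a median of 0.32. In humans, the glycine and lysine enzymes of both compartments come from a single gene each.

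On the mitochondrial side, the largest difference was that of GluRS-m, the glutamate enzyme. It had 71.4 and 59.0 scaled reads in H2A.Z KD, against 185 and 167 in Luc KD. Both H2A.Z KD libraries lay below both controls, at 38.6% of the control in table A and 35.4% in table B. The log2 difference was -1.42 (SE 0.21, limma adjusted p 0.0236 without the block and 7.03e-06 with it). Its neighbour TyrRS, 171 bases away on the same strand, had a log2 difference of -0.04. TrpRS-m, the tryptophan enzyme (arm 3L, 17849727 to 17852453, plus strand), had 666 and 564 scaled reads in H2A.Z KD, against 988 and 987 in Luc KD, again with no overlap. Its log2 difference was -0.69 (SE 0.12, limma adjusted p 0.0322 without the block and 2.29e-05 with it).

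AlaRS-m, the alanine enzyme, had 553 and 438 scaled reads in H2A.Z KD, against 731 and 776 in Luc KD, a log2 difference of -0.61. IleRS-m, the isoleucine enzyme, had 182 and 182 in H2A.Z KD, against 272 and 281 in Luc KD, a log2 difference of -0.60. PheRS-m, the phenylalanine enzyme, which in mitochondria is a single chain, had 418 and 337 in H2A.Z KD, against 488 and 642 in Luc KD, a log2 difference of -0.57. These 3 genes passed limma only with the block (adjusted p 0.00021, 0.00117 and 0.00248), and in each both H2A.Z KD libraries lay below the controls. AsnRS-m (-0.56), ArgRS-m (-0.55), CysRS-m (-0.50), ProRS-m (-0.38) and LeuRS-m (-0.36) also had lower levels that passed limma only with the block. ArgRS-m and CysRS-m share 11.8% and 14.3% of their exon length with mRpS9 and CG13016 on the opposite strand.

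The 5 mitochondrial genes that passed in neither limma fit were ValRS-m (-0.27), TyrRS-m (-0.22), SerRS-m (-0.19), MetRS-m (-0.16) and AspRS-m (-0.03). MetRS-m had 420 and 409 scaled reads in H2A.Z KD, against 441 and 487 in Luc KD. AspRS-m, the aspartate enzyme and the most abundant of the class, had 4165 and 3695 in H2A.Z KD, against 4055 and 3944 in Luc KD, and was the only mitochondrial gene whose H2A.Z KD and Luc KD libraries overlapped.

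**Figure D2:**
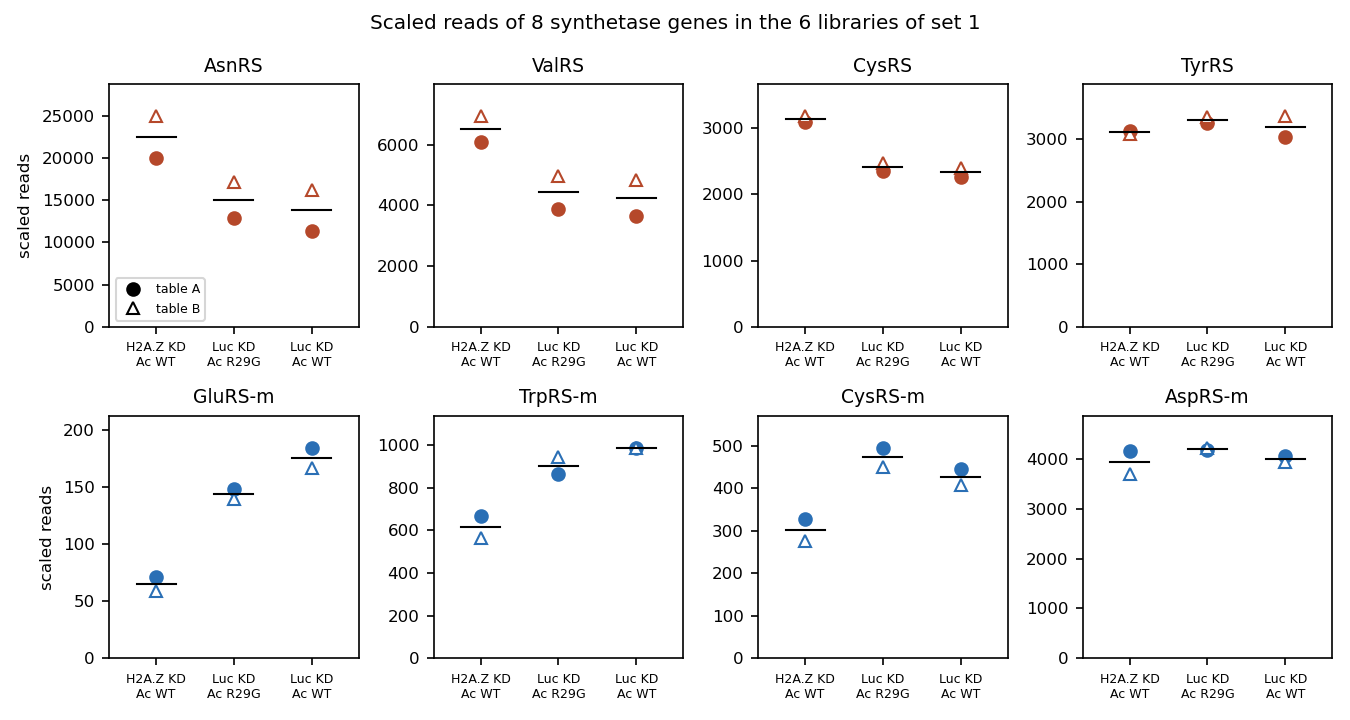
Scaled reads (linear axes from 0) of 4 cytosolic genes (AsnRS, ValRS, CysRS and TyrRS, upper row) and 4 mitochondrial genes (GluRS-m, TrpRS-m, CysRS-m and AspRS-m, lower row) in H2A.Z KD, Ac R29G and Luc KD, left to right, each with the libraries of tables A (circle) and B (open triangle) and a bar at their mean. H2A.Z KD libraries lie above the controls for AsnRS, ValRS and CysRS and below them for GluRS-m, TrpRS-m and CysRS-m, and overlap with them for TyrRS and AspRS-m.

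Libraries without overlap gave 14 cytosolic genes with both H2A.Z KD libraries above both Luc KD libraries, where 26% of all genes were so, and 14 mitochondrial genes with both below, where 26.1% of all genes were so. The same counts in all genes shift with the level of a gene. Among the 2601 genes whose mean lay in the range of the cytosolic genes, the median log2 difference was 0.10, 64.4% of the differences were positive, 41.6% were higher with the block and 40.3% had both H2A.Z KD libraries above both controls. Without the block, limma called 6.19% of these 2601 genes higher, against 5.56% of the cytosolic synthetase genes (CysRS alone). Among the 5441 genes in the range of the mitochondrial genes, the median was -0.08, 41.0% were positive, 32.0% were lower with the block and 37.4% had both H2A.Z KD libraries below both controls. Without the block, limma called 3.86% of these 5441 genes lower, against 13.3% of the mitochondrial synthetase genes (2 genes). In steps of 1 unit of mean log2 level, the median of all genes was lowest at -0.22 (levels 7 to 8) and reached 0.24 (levels 14 to 15) and 0.32 (levels 15 to 16). Set against the median of their own step, 14 of 18 cytosolic genes were higher and 14 of 15 mitochondrial genes were lower. Outside the 10th to 90th percentile of their step lay 5 cytosolic genes above (AsnRS, ValRS, ThrRS, HisRS and LeuRS) and 3 mitochondrial genes below (GluRS-m, TrpRS-m and AlaRS-m). The part of level in the split between the classes was not tested further.

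**Figure D3:**
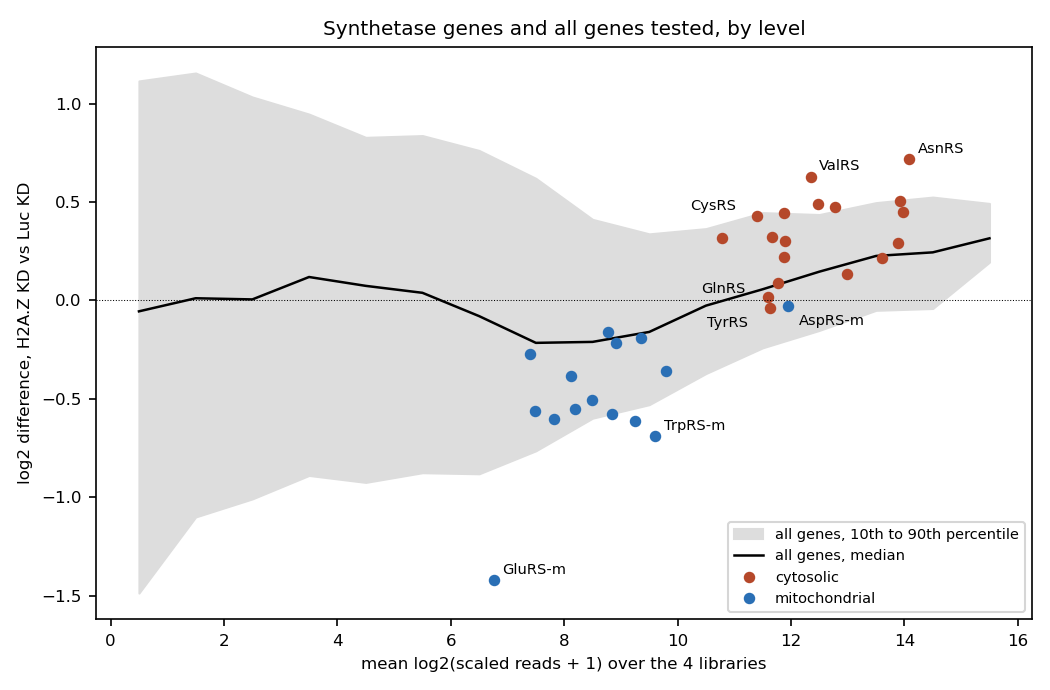
Log2 difference between H2A.Z KD and Luc KD against the mean log2(scaled reads + 1) of the 4 libraries, with cytosolic synthetase genes in red, mitochondrial ones in blue, the median of all genes tested as a black line and their 10th to 90th percentile as a grey band. The line dips below 0 where most mitochondrial genes lie and rises above 0 at the levels of the cytosolic genes, with AsnRS, ValRS, GluRS-m and TrpRS-m outside the band.

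For 14 amino acids with a gene of each kind, or with GluProRS on the cytosolic side for glutamate and proline, the ratio of cytosolic to mitochondrial scaled reads was taken within each library. In all 14 pairs both H2A.Z KD libraries had a higher ratio than both Luc KD libraries, and in 13 the cytosolic difference was positive and the mitochondrial one negative. All genes at the levels of the 2 classes also had medians of opposite sign (0.10 and -0.08). No such ratio was taken for other pairs of genes. In Ac R29G and in Arp6 KD the gap was positive in 12 of 14 pairs each. There, the ratio lay above both controls in 6 pairs (below in 1) and in 7 pairs (below in 0). The gap between the log2 differences had a median of 0.14 in Ac R29G and 0.10 in Arp6 KD. Under H2A.Z KD its median was 0.88, and it ran from 0.16 for aspartate and 0.18 for tyrosine to 1.28 for asparagine and 1.63 for glutamate. The GluProRS to GluRS-m ratio was 185 and 225 in H2A.Z KD, against 61.1 and 70.4 in Luc KD. The AsnRS to AsnRS-m ratio was 144 and 160.0 in H2A.Z KD, against 58.6 and 66.8 in Luc KD. Summed over each class, the cytosolic genes had 14.9 and 19.0 times the scaled reads of the mitochondrial genes in H2A.Z KD, against 9.82 and 11.3 times in Luc KD. Tyrosine was the pair in which both genes had a negative difference under H2A.Z KD.

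**Figure D4:**
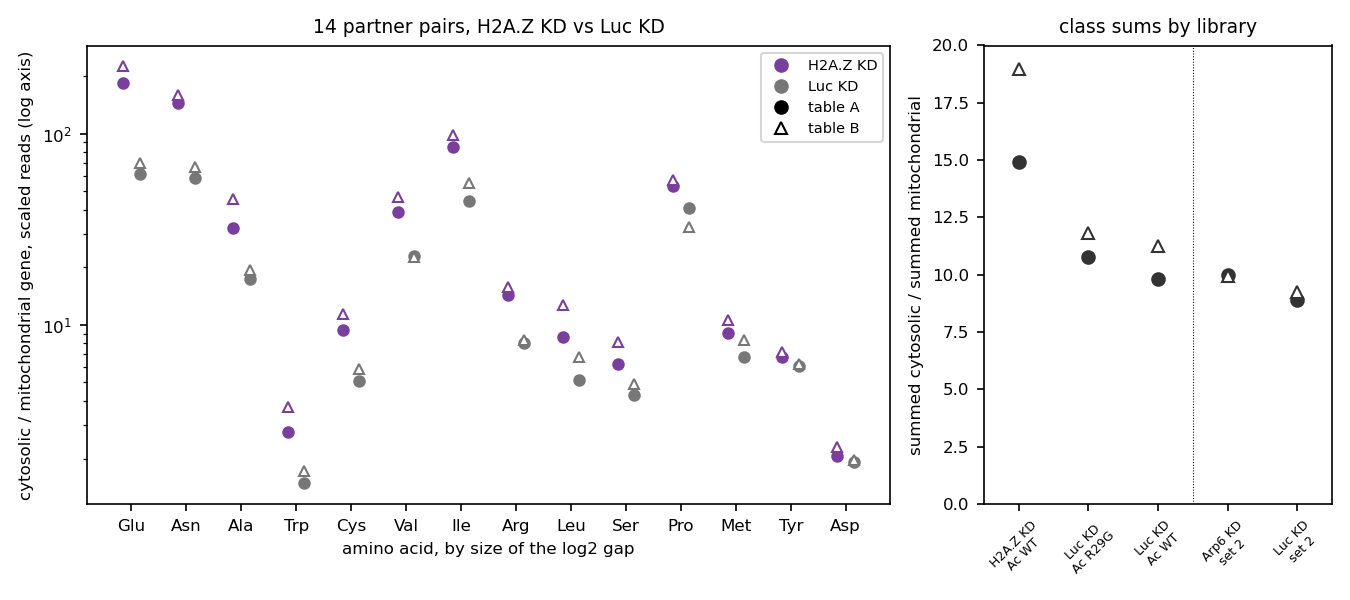
Left, ratio of cytosolic to mitochondrial scaled reads (log axis) for 14 amino acids in H2A.Z KD (purple) and Luc KD (grey), with table A as circles and table B as open triangles; right, ratio of the class sums in each library of sets 1 and 2 (axis from 0), where circles are table A or replicate 1 and open triangles table B or replicate 2. All 14 pairs have both H2A.Z KD points above both Luc KD points, and the class ratio is 14.9 and 19.0 in H2A.Z KD and between 9.82 and 11.8 in the other 4 libraries of set 1.

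The authors' deposited table for H2A.Z KD over Luc KD held a positive log2 fold change for 17 of 18 cytosolic genes and a negative one for all 15 mitochondrial genes, with medians of 0.31 and -0.51. In the authors' deposited table, 7 cytosolic genes were past an adjusted p of 0.05 upwards and 7 mitochondrial genes downwards, GluRS-m with a log2 fold change of -1.44 (SE 0.30) and AsnRS with 0.69 (SE 0.21). The share of all genes past that threshold in the deposited table was not taken, so these counts have no background. The deposited fit used the same experiment, and is not a second measurement.

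Proteins that help the synthetases were less uniform. Of the partners of tRNA charging, 7 of 8 matched genes could be tested (median -0.41 under H2A.Z KD), and none passed limma without the block. With it, 4 were lower, against 18.3% of all genes and 32.0% of those in the range of the mitochondrial synthetase genes. The 4 were GatA (-0.41) and GatB (-0.56), subunits of the mitochondrial amidotransferase that converts glutamate on glutamine tRNA to glutamine, Slimp (-0.51), a mitochondrial paralog of SerRS, and Dtd (-1.30), a deacylase that removes D-amino acids from tRNA. Dtd had only 18.1 and 35.7 scaled reads in H2A.Z KD, against 62.1 and 66.1 in Luc KD (SE 0.37). The scaffold genes AIMP1 (-0.05), AIMP2 (0.04) and AIMP3 (-0.19) passed in neither fit. Of 9 genes for delivery of charged tRNA to the ribosome (median 0.27), the mitochondrial elongation factor mEFTu2 was lower: it had 421 and 311 scaled reads in H2A.Z KD, against 703 and 787 in Luc KD (log2 difference -1.04, limma adjusted p 0.0273). With the block, 6 of the 9 were higher, against 19.2% of all genes, among them the cytosolic factors eEF1beta (0.49), eEF1delta (0.46) and eEF1alpha1 (0.36). The mitochondrial factor mEFG1 was also among these 6 (0.27, limma adjusted p 0.0249 with the block). The mitochondrial factors mEFTu1 (0.04) and mEFTs (-0.11) passed in neither fit. The levels of eEF1beta and eEF1alpha1 lay above those of the synthetase genes, with 46989 and 793563 scaled reads in Luc KD of table A. In the step of levels 15 to 16, where eEF1beta lay, all genes had a median of 0.32 and a 10th to 90th percentile of 0.19 to 0.49.

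The kinase Gcn2 senses uncharged tRNA, and the transcription factor ATF4 (crc in the fly) acts below it on amino acid genes, cytosolic synthetase genes among them in mammals. Of the 15 genes tested from a list for this response (median 0.34), 3 were higher in H2A.Z KD by limma without the block, against 2.56% of all genes. AsnS, asparagine synthetase, had 4675 and 5233 scaled reads in H2A.Z KD, against 2673 and 2978 in Luc KD (log2 difference 0.81, limma adjusted p 0.0182). Nmdmc, a mitochondrial folate enzyme, had a log2 difference of 0.65 and aay, a phosphatase of serine synthesis, one of 0.62. With the block, 11 of the 15 were higher, against 19.2% of all genes and 41.6% of those in the range of the cytosolic synthetase genes. Among them crc itself was higher by 0.26, and Gcn2 was lower (-0.30). Of 8 amino acid transporter genes (median 0.44), mnd passed without the block (0.39, limma adjusted p 0.0455), and JhI-21 (0.67) and path (0.70) with it, against 2.56% and 19.2% of all genes. The genes slif, CG1139, sbm, CG4991 and gb passed in neither fit. The median lay between mnd and sbm (0.49), and sbm had only 20.4 and 36.6 scaled reads in Luc KD. CG1139 and CG4991 had at most 9.84 in any H2A.Z KD or Luc KD library of set 1. The hemocyte markers had a positive difference in 11 of 11 genes, with a median of 0.39. Of these, 2 (eater and NimC1) were called without the block and 11 with it, against the same shares of all genes. Pxn and Nplp2 lay at levels 15 to 16, where all genes had a median of 0.32 and a 10th percentile of 0.19. Hml, Col4a1 and vkg lay above those levels, so the shares of all genes are a low background for these markers. The part of the hemocyte markers in the results on synthetase genes was not tested.

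Ac R29G was set against Ac WT with the same 2 Luc KD libraries that served as controls for H2A.Z KD, so the comparisons are not independent. No synthetase gene was called in Ac R29G, with a limma adjusted p of 1 for all 33 without the block and at least 0.395 with it; limma called 0% of all genes without the block and 0.62% with it. At an unadjusted p under 0.05, limma gave 0 synthetase genes and 240 of all genes, and edgeR and DESeq2 called 0 synthetase genes, against 0% and 0.0664% of all genes. The cytosolic genes had a median log2 difference of 0.07, 17 of 18 positive, and the mitochondrial genes -0.05, 11 of 15 negative. Over all genes tested the median was 0.0096, with 53.3% positive. Genes in the range of means of the cytosolic genes had a median of 0.02, with 65.2% positive. Those in the range of the mitochondrial genes had a median of 0.01, with 56.1% positive. Without the block, leaving out the table A library of Ac WT gave a cytosolic median of -0.05, with 5 of 18 positive, and leaving out the table B library of Ac R29G one of 0.02, with 10 of 18 positive. With the block, leaving out these libraries gave 0.04 and 0.11. ThrRS had the highest cytosolic value, with 13640 and 15322 scaled reads in Ac R29G, against 12201 and 13974 in Ac WT (log2 difference 0.15, SE 0.12), and AsnRS followed with 12918 and 17122 in Ac R29G, against 11391 and 16168 in Ac WT. GlnRS was lowest, with 2937 and 2990 in Ac R29G, against 2958 and 3175 in Ac WT. These libraries overlapped in all 3 genes.

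GluRS-m again had the lowest mitochondrial value, with 149 and 139 scaled reads in Ac R29G, against 185 and 167 in Ac WT (log2 difference -0.28, SE 0.21), and ArgRS-m had 298 and 303 in Ac R29G, against 333 and 372 in Ac WT (-0.23). CysRS-m had the highest, with 496 and 451 in Ac R29G, against 447 and 409 in Ac WT (0.15). The libraries of these 3 genes did not overlap between the groups. Without overlap lay 3 cytosolic and 2 mitochondrial genes above, where 12.1% of all genes were so, and 5 mitochondrial genes below, where 11.2% were so. Of genes in the range of the cytosolic genes, 11.6% lay above. In the range of the mitochondrial genes, 10.5% lay above and 7.92% below. The class ratio was 10.8 and 11.8 in Ac R29G, against 9.82 and 11.3 in Ac WT.

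In Arp6 KD, no synthetase gene was called, with limma adjusted p-values of at least 0.694 without the block, where limma called 0.0283% of all genes. At an unadjusted p under 0.05, limma gave 2 of 33 synthetase genes and 739 of all 10605 genes, and edgeR and DESeq2 without the block called 0, against 0.0371% and 0.325% of all genes. ThrRS had 5331 and 5200 scaled reads in Arp6 KD, against 4633 and 4759 in Luc KD (log2 difference 0.17, SE 0.062). ArgRS-m had 173 and 171 in Arp6 KD, against 198 and 232 in Luc KD (-0.31, SE 0.12). ThrRS and ArgRS-m were the 2 genes under 0.05 unadjusted, and edgeR with the replicate number as a block called the same 2, ThrRS higher and ArgRS-m lower, against 10.8% of all genes.

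The cytosolic genes had a median log2 difference of 0.03 in Arp6 KD, 12 of 18 positive, and the mitochondrial genes -0.10, 12 of 15 negative. Over all genes tested the median was -0.013, with 47.1% positive. Genes in the range of means of the cytosolic genes had a median of 0.03, with 62.0% positive, so the cytosolic class lay near them. Those in the range of the mitochondrial genes had a median of -0.017, with 44.5% positive. Leaving out 1 library, with or without the block, the cytosolic median ran from 0.0063, with 9 of 18 positive, to 0.062, with 14 of 18, and the mitochondrial median from -0.13 to -0.060. Lowest of the cytosolic genes were GlnRS, with 1248 and 1273 scaled reads in Arp6 KD, against 1374 and 1354 in Luc KD, and GlyRS, with 1382 and 1371 in Arp6 KD, against 1527 and 1427 in Luc KD. GluRS-m had 79.6 and 71.9 in Arp6 KD, against 91.0 and 97.3 in Luc KD (-0.31, SE 0.17), and its libraries did not overlap. Highest of the mitochondrial genes were SerRS-m (0.02) and ProRS-m (0.0047). Without overlap lay 7 cytosolic genes above, where 18.6% of all genes were so, and 2 cytosolic and 6 mitochondrial genes below, where 20.4% were so. Of genes in the range of the cytosolic genes, 30.8% lay above and 13.1% below. In the range of the mitochondrial genes, 22.3% lay below. The class ratio was 9.99 and 9.94 in Arp6 KD, against 8.90 and 9.23 in Luc KD. None of the genes from the lists on tRNA charging, tRNA delivery, the Gcn2 response or amino acid transport was called by limma in Ac R29G or Arp6 KD. Without the first Arp6 KD library, which kept 79.8% of Arp6, the cytosolic median was 0.029 and the mitochondrial median -0.13 in limma without the block. That fit holds 1 Arp6 KD library, so its calls cannot show whether a stronger knockdown changes synthetase genes. Whether the responses to H2A.Z KD and Arp6 KD differ was not tested, since the sets were deposited apart.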

How the data were processed

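RNA sequencing values were taken for the 10 libraries of 5 groups from 3 deposited tables. The signal the authors deposited per gene is reads divided by 1 size factor per library; 100% of values were whole multiples of 1 read within a tolerance of 0.001 reads, so reads were recovered. Partek and BDGP6 are named, with no role, by the submitters' processing notes. Aligner, counter and strand setting: not given in the sources used here. Their 2 deposited comparison tables hold log2 fold changes, a score (fold over its error), p-values, adjusted p-values and a mean signal per gene, per the file headers. Set 1 was rescaled by median of ratios over its 6 libraries, since the authors scaled tables A and B apart; set 2 kept its deposited values. In tables A and B no column has a replicate number, and Luc KD there was taken as the control of set 1, being in 1 table with R29G. Genes with a mean of at least 1 were tested on log2(value + 1) with limma 3.58.1 (trend, Benjamini-Hochberg, 0.05) in R 4.3.3, all groups of a set in one fit, and the calculation was tested on simulated data. Deviations from group means correlated between groups within a table (0.576, 0.622 and 0.646 over 9106 genes with a mean of at least 10), so set 1 was read as paired by table. Set 2, with 2 groups and 1 such correlation, was not. Recovered reads were also tested with edgeR 4.0.16 and DESeq2 1.42.0. Replicates differed beyond counting noise (chi-square per degree of freedom 4.0 to 40.1), so none was a repeat deposit. The members and the other gene lists were chosen with earlier results of these data known. Library values are given for genes with the largest differences or levels of each class and for called genes and their partners; of the other lists, Mtfmt, Gcn1 and Chac were not matched by name.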

Additional observations from a re-analysis of the deposited data

How the results depend on the processing

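The class medians of H2A.Z KD kept their sign under every alternative run, while the number of synthetase genes called, 3 without the block, depended on how the spread was estimated. It was 24 with the replicate block and 13 by DESeq2 without it. By edgeR with the block it was 24 (all genes: 2235 higher, 2436 lower), and by DESeq2 with the block 23 (1837 and 1489). Median scaling gave 10 (AlaRS, AsnRS, CysRS, GluProRS, LysRS, SerRS, ThrRS and ValRS higher, GluRS-m and TrpRS-m lower). All genes then had 816 higher and 180 lower, against 306 and 244 before. Median scaling with the block gave 25 (all genes: 3355 higher, 1230 lower), and quantile normalization with the block 20 (1796 and 2017). With only the 2 groups compared it was 0 (all genes: 18 higher, 2 lower). Without the intensity trend it was also 0, with or without the block. Leaving out 1 library gave 0 to 26 calls, 0 for each of the 6 libraries without the block and 20 to 26 with it for the H2A.Z KD and Luc KD libraries; the Ac R29G libraries were not left out with the block. Median scaling put the median of all genes at 0.13 in H2A.Z KD, against -0.0011 before, and the class medians at 0.46 and -0.36, with 18 of 18 cytosolic genes positive and 14 of 15 mitochondrial genes negative; quantile normalization gave 13 of 18 cytosolic genes positive. Leaving out 1 library, the mitochondrial median ran from -0.58 to -0.27 in H2A.Z KD, the value nearest 0 being the one without the table B library of H2A.Z KD, and from -0.16 to 0.044 in Ac R29G, where it was positive with the block without the table B library of Luc KD and, at 0.0060, without the table A library of Ac R29G. The cytosolic median of Ac R29G ran from -0.05 to 0.19. In Arp6 KD, the cytosolic median was 0.073 with median scaling and -0.0086 with quantile normalization, each with or without the block, and edgeR with the replicate block called 2 genes where the other tests called 0. The block fits by edgeR and DESeq2, by scaling and without trend were added after the data were seen. In set 2, deviations of same-numbered libraries correlated at 0.5 over 7976 genes, and limma with the replicate block called 0 of the 33. Blocked fits with 1 library left out had no spread left to test in set 2. The causes of these shifts were not tested.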
